A study of Arabidopsis thaliana with 6 samples.

Results

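miR165 and miR166 are a pair of plant microRNA (miRNA) families, short RNAs that direct the cutting or silencing of mRNAs they can pair with. Every row of the count table that names a MIR165 or MIR166 locus was taken, on either arm of the precursor hairpin, which gave 5 of the 294 mature sequences listed. The choice used locus names and no measured value. The libraries came from Arabidopsis thaliana seedlings in shaking liquid culture, 3 treated with 1 µM epibrassinolide (epiBL, an active brassinosteroid) and 3 with solvent only, all harvested at 90 min. All 6 came from one genotype, the bri1-5 mutant of the brassinosteroid receptor BRI1 carrying a Flag-tagged wild-type BRI1 transgene driven by the gene's own promoter, so no library lacks the transgene. The sources used here do not give seedling age or the number of plants per library. The replicates are called biological, without mention of separate cultures, so p-values cover the spread among these libraries, which may be technical.

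In each of these hairpins the 3p strand is the guide, which is loaded into ARGONAUTE proteins, and the 5p strand is its passenger. The guides target the class III homeodomain-leucine zipper (HD-ZIP III) genes, PHABULOSA (PHB), PHAVOLUTA (PHV), REVOLUTA (REV), ATHB-15 and ATHB-8, transcription factors that specify the upper leaf face, keep the shoot meristem active and pattern the vasculature. The miRNAs confine these factors to the upper side of leaf primordia and, in the root, move from the endodermis into the stele to grade them. ARGONAUTE10 binds the same guides in the shoot apex and withholds them from ARGONAUTE1.

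The 5 sequences, all 21 nt long, are shown because 1 base separates the families and a few bases separate the passengers. They are written 5′ to 3′ with T for U, and capitals mark the seed (bases 2 to 8).
miR166a-g-3p: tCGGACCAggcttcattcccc
miR165a/b-3p: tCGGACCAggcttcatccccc
miR166a/b-5p: gGACTGTTgtctggctcgagg
miR165a-5p: gGAATGTTgtctggatcgagg
miR166e-5p: gGAATGTTgtctggcacgagg
The guides share one seed and differ only by T17C, where positions run from 1 at the 5′ end and the miR166a-g-3p base stands first. No other sequence in the table was within 1 substitution of a member at equal length. miR165a-5p and miR166e-5p share a second seed, while C4A sets miR166a/b-5p (first) apart from both. Because the counts are of reads identical to the listed sequence, a T-to-C or C-to-T sequencing error at base 17 of one guide is counted as the other guide.

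The 5 sequences had 13 exact matches in the TAIR10.1 assembly, all 13 inside an annotated MIR165 or MIR166 precursor and outside protein-coding genes. The miR166 guide matched 7 loci and the miR165 guide 2, so guide reads cannot be assigned to a locus. Of the 9 loci, 5 lie on chromosome 5, where MIR166c (chr5:2838635-2838773, plus strand) and MIR166d (chr5:2840622-2840734, plus strand) are 1848 bases apart. Passenger reads separate some loci: miR165a-5p matched only MIR165a (chr1:78927-79037, minus strand), miR166e-5p only MIR166e (chr5:16775520-16775662, minus strand), and miR166a/b-5p matched MIR166a (chr2:19176108-19176277, plus strand) and MIR166b (chr3:22922206-22922325, plus strand). MIR165b and MIR166c, d, f and g have no passenger row. In those 5 precursors the stretch most like a counted passenger differed from it by 1 to 5 bases. The precursors with a single-locus passenger, and that of MIR166a, are printed from the RefSeq annotation of TAIR10.1, 5′ to 3′ on the transcribed strand, with the counted 5p and 3p sequences in capitals.
MIR165a: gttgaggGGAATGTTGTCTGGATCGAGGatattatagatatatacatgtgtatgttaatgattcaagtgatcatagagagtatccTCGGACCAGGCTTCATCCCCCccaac
MIR166a: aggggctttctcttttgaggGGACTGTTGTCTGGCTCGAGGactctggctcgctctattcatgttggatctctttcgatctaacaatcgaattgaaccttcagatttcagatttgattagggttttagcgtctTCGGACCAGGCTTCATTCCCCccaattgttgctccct
MIR166e: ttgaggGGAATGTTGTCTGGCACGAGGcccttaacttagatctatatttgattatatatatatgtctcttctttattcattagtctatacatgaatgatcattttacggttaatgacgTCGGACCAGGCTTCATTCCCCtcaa
The stretch between the counted 5p and 3p sequences was 57 bases in MIR165a, 92 in MIR166a and 91 in MIR166e.

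For the HD-ZIP III genes alone, a single spliced transcript per gene in TAIR10.1 was searched for the 21 bases most complementary to miR166a-g-3p. Such a search returns a best stretch from any mRNA, and no other genes were searched, so it does not test the family's targets. All 5 sites fell in coding sequence and across an exon junction. They are written 5′ to 3′ on the mRNA strand, and capitals mark bases without a Watson-Crick partner in miR166a-g-3p.
PHB: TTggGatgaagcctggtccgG
PHV: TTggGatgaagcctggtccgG
REV: CTggGatgaagcctggtccgG
HB-8: CTggGatgaagcctggtccgG
ATHB-15: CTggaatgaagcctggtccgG
The sites lie within chr2:14642530-14642666 (PHB, minus strand), chr1:10799330-10799445 (PHV, minus strand), chr5:24398787-24398898 (REV, plus strand), chr4:15866872-15866974 (HB-8, the annotation's symbol for ATHB-8, minus strand) and chr1:19412976-19413085 (ATHB-15, minus strand), each span including an intron of 82 to 116 bases. All 5 pair with the guides throughout bases 2 to 16, and differ in how they meet base 17, the one that separates the families. There miR166a-g-3p forms a G:U pair with 4 sites and a Watson-Crick pair with that of ATHB-15, whereas miR165a/b-3p pairs with those 4 and is mismatched to ATHB-15. Each guide otherwise has a G:U pair at base 1 and mismatches at bases 20 and 21.

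Totals of exact-match reads were 3732417, 4112329 and 2050074 in epiBL replicates 1, 2 and 3 and 3878714 to 4482479 in control libraries. The factors that TMM, a scaling that assumes most miRNAs do not change, applied to these totals ran from 0.873 to 1.05 with epiBL and from 0.998 to 1.10 in controls. The lowest was that of epiBL replicate 3, also the shallowest library, where 3 counts are 1.46 CPM (counts scaled to the library total). All 5 members passed the low-count filter.

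The guides made up most of the counts in the table, which holds only reads identical to a listed miRNA. miR166a-g-3p held 45.7%, 41.3% and 45.9% of the counts in epiBL replicates 1, 2 and 3, against 42.3%, 40.7% and 42.5% in control replicates 1, 2 and 3, and ranked 1 in all 6 libraries. epiBL replicate 2 lay within the control range, so the groups overlapped. miR165a/b-3p, ranked 3 in all 6, held 12.7%, 12.6% and 13.8% with epiBL, against 12.3%, 12.1% and 12.0% in controls. Here every epiBL library was above every control library, the highest being epiBL replicate 3, and 27.7% of all tested miRNAs likewise had shares that did not overlap. The difference was 0.905 percentage points (two-sided exact permutation test, p = 0.1, the smallest that 3 against 3 libraries allow) and 0.524 without epiBL replicate 3. All 5 members together held 57.4% ± 3.07 with epiBL and 54.1% ± 0.957 in controls (SD, n = 3 each, exact permutation p = 0.3). The stacked plot of shares gives both guides by library.

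**Figure D1:**
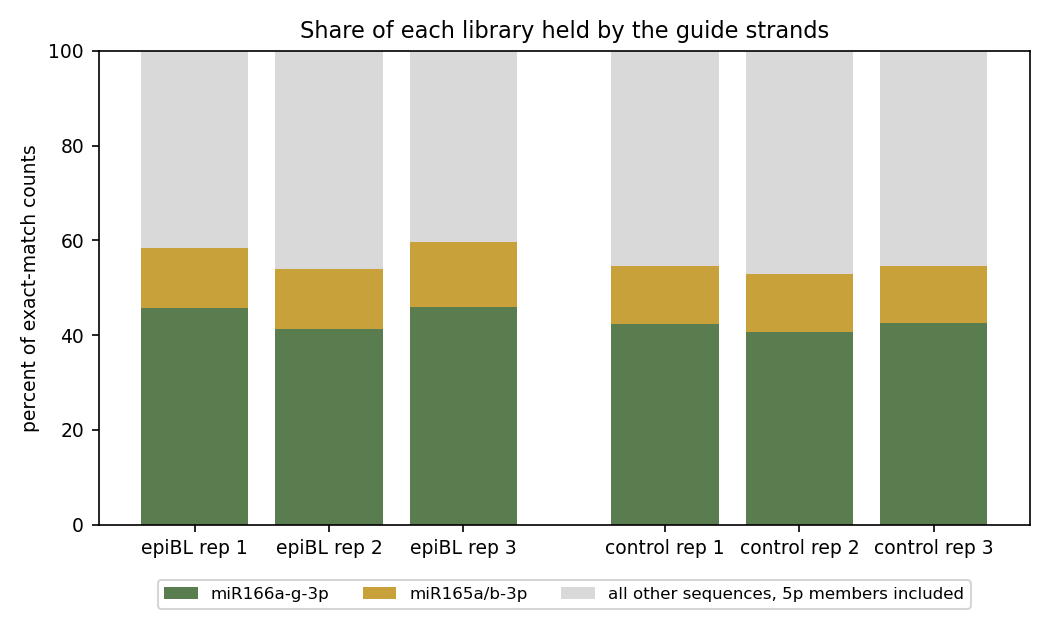
Percent of the exact-match counts of each library (y axis) held by miR166a-g-3p, by miR165a/b-3p and by all other sequences, for 3 epiBL and 3 control libraries (x axis). The guides together hold 52.9% to 59.7% of every library, and in this sum epiBL replicate 2 sits among the controls. Its share of miR165a/b-3p alone is above all controls.

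On the TMM-normalised scale, miR166a-g-3p stood at 483090, 394180 and 526090 CPM in epiBL replicates 1, 2 and 3, against 424040, 369320 and 404890 CPM in control replicates 1, 2 and 3. Replicates 1 and 3 of epiBL were above all controls and replicate 2 was not. miR165a/b-3p stood at 134570, 119930 and 158120 CPM with epiBL, against 122750, 109920 and 114490 CPM in controls, with the same library overlapping, whereas its shares of the raw totals did not overlap. The log2 fold change was 0.23 (SE 0.13) for miR166a-g-3p and 0.25 (SE 0.12) for miR165a/b-3p, and neither passed edgeR's quasi-likelihood test (Benjamini-Hochberg adjusted p = 0.274 and 0.208). In bulk tissue, more RNA per cell and more cells that make it cannot be told apart.

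Both values depended on the libraries and on the scaling. Without epiBL replicate 2 both guides passed, at 0.35 each (edgeR adjusted p = 0.0406 each), and without epiBL replicate 3 they were 0.15 each. With total counts as the only scaling the log2 fold change was 0.083 for miR166a-g-3p and 0.10 for miR165a/b-3p, where the median of all tested miRNAs lay at -0.13.

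**Figure D2:**
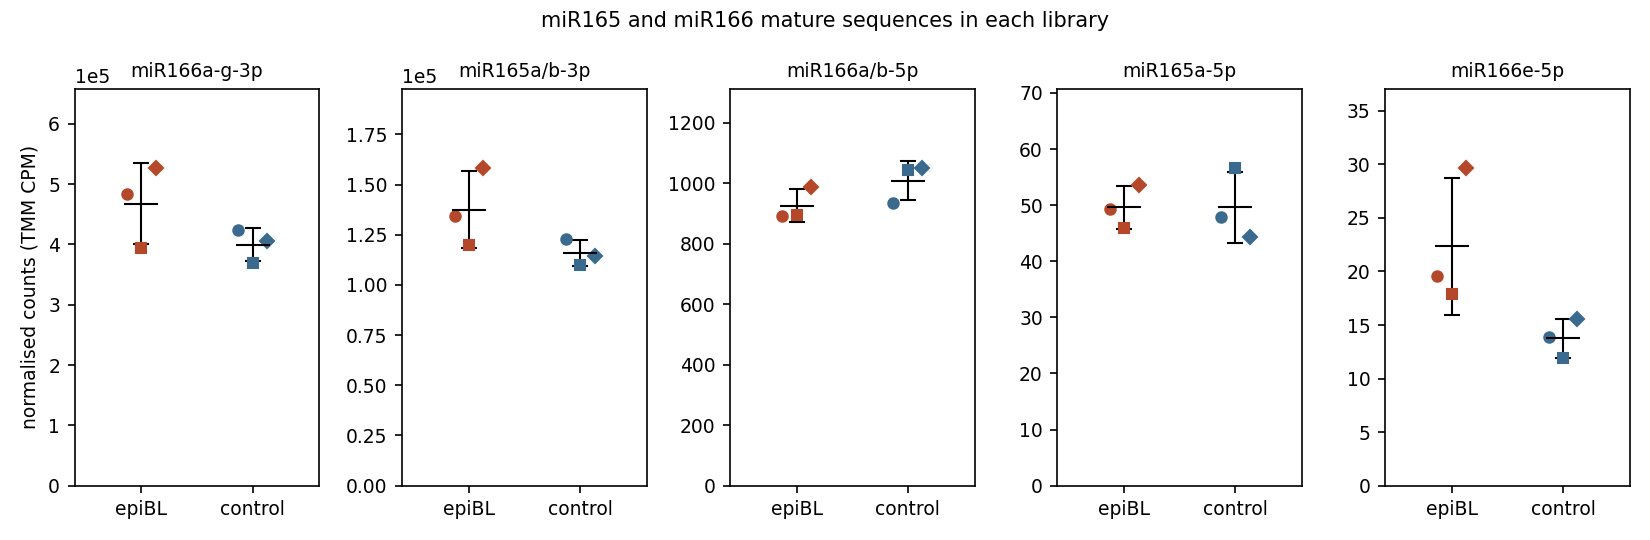
Normalised counts (TMM CPM, y axis, linear from 0) of the 5 members in epiBL and control libraries (x axis). Circles, squares and diamonds are replicates 1, 2 and 3, and bars give the mean and SD (n = 3). In the panel of miR166e-5p alone, all 3 epiBL points (17.9 to 29.6 CPM) are above all 3 control points (11.9 to 15.5 CPM).

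The balance between the families did not shift beyond the replicate spread. For every 100 miR166 guide reads there were 27.9, 30.4 and 30.1 miR165 guide reads in epiBL replicates 1, 2 and 3, against 28.9, 29.8 and 28.3 in control replicates 1, 2 and 3. The epiBL libraries held both the lowest and the highest ratio. The log2 ratio differed by 0.022 (exact permutation p = 0.7), and the sign turned without epiBL replicate 2 (-0.0027). This ratio is taken within a library and does not depend on scaling.

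The passengers were far scarcer. Together they were 0.166% ± 0.0176 of the family's reads with epiBL and 0.209% ± 0.0250 in controls (SD, n = 3 each), with overlapping groups (exact permutation p = 0.2). Ordered by level, miR166a-g-3p, miR165a/b-3p, miR166a/b-5p, miR165a-5p and miR166e-5p kept the same order in all 6 libraries, and the ranges of neighbours in that order did not overlap.

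miR166a/b-5p, the passenger of the MIR166a and MIR166b hairpins, stood at 892, 895 and 988 CPM in epiBL replicates 1, 2 and 3, against 934, 1042 and 1049 CPM in control replicates 1, 2 and 3. Replicates 1 and 2 of epiBL were below all controls and replicate 3 lay among them. Its log2 fold change was -0.13 (SE 0.09, edgeR adjusted p = 0.417), and with total counts only it was -0.27.

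miR165a-5p, the passenger of MIR165a, stood at 49.3, 45.9 and 53.7 CPM with epiBL, against 47.8, 56.6 and 44.4 CPM in controls. The groups were interleaved, the log2 fold change was -0.01 (SE 0.14, edgeR adjusted p = 0.968), and its sign depended on the scaling, being 0.014 with RLE factors and -0.14 with total counts.

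miR166e-5p, the passenger of MIR166e, was the scarcest member, with 69, 77 and 53 reads in epiBL replicates 1, 2 and 3 and 62, 51 and 64 in control replicates 1, 2 and 3. Normalised, these were 19.5, 17.9 and 29.6 CPM with epiBL, against 13.9, 11.9 and 15.5 CPM in controls. It was the one member whose groups did not overlap, which 27.7% of all tested miRNAs also showed. Its log2 fold change was 0.64 (SE 0.24), the largest in size among the members, with an unadjusted p of 0.0165 and an adjusted p of 0.0975 in edgeR's test, so it did not pass. The shallowest library, epiBL replicate 3, had its highest value: without it the log2 fold change was 0.46 (adjusted p = 0.269), and without epiBL replicate 2 it was 0.79 (adjusted p = 0.0294).

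Of the 5 members, 0 passed edgeR's test at an adjusted p under 0.05, against 8.11% of the 148 miRNAs tested (12 of 148, of which 4 were higher, 2.7%, and 8 lower, 5.41%). At an unadjusted p under 0.05, 1 member passed, against 23.6% of all tested, and 0 passed at the adjusted threshold in DESeq2 or limma-trend. The median log2 fold change of the members was 0.23, with 3 positive and 2 negative, beside 0.0046 over all tested. In the authors' deposited table the unadjusted p was 0.00258 for miR166e-5p, 0.0262 for miR165a/b-3p and 0.0457 for miR166a-g-3p, and after Benjamini-Hochberg adjustment of that table's p-values over its 294 sequences these were 0.0584, 0.225 and 0.320. The authors' deposited table gives log2 fold changes of 0.65, 0.26 and 0.24 for the same sequences.

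**Figure D3:**
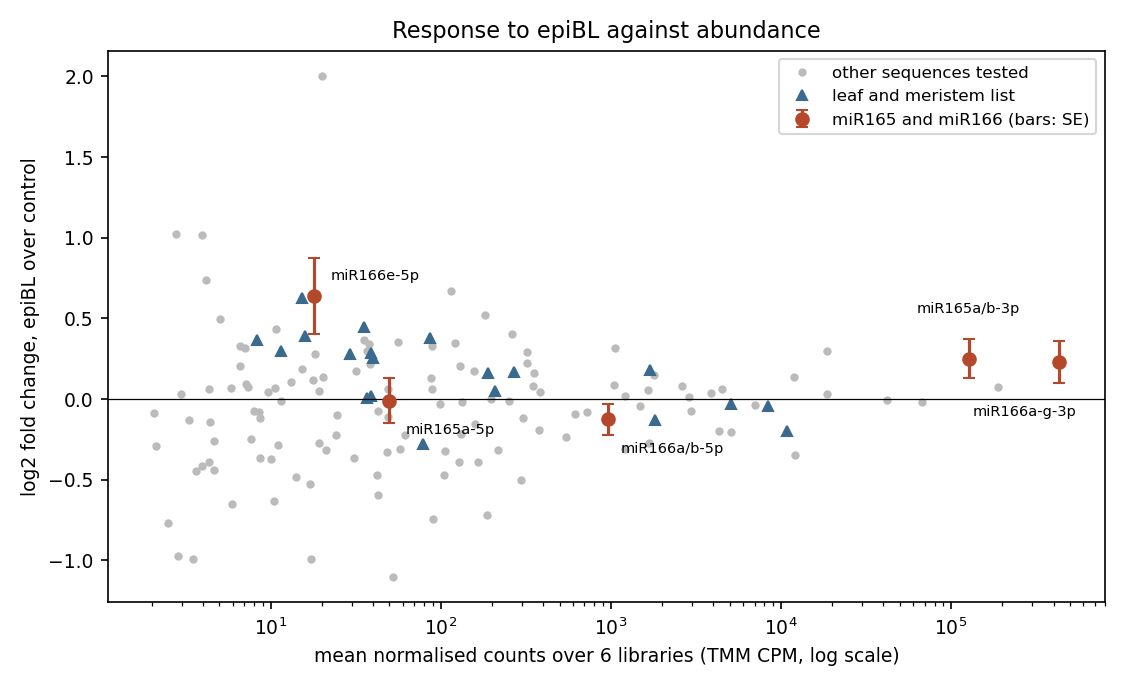
Log2 fold change, epiBL over control (y axis), against mean normalised counts over the 6 libraries (x axis, log scale) for the 148 miRNAs tested. The 5 members carry bars of 1 SE. The guides lie at the far right, 0.23 and 0.25 above 0, and miR166e-5p (0.64) lies among the scarce sequences.

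Passenger and guide of a hairpin are cut from the same precursor, so their ratio asks whether strand accumulation shifted, free of library scaling. Per 100 reads of miR166a-g-3p there were 0.185, 0.227 and 0.188 reads of miR166a/b-5p in epiBL replicates 1, 2 and 3, against 0.220, 0.282 and 0.259 in control replicates 1, 2 and 3. Only epiBL replicate 2 reached into the control range. The log2 ratio of passenger to guide differed by -0.34, lower with epiBL (SE 0.17, limma adjusted p = 0.271 over 45 arm pairs of all families). For MIR165a the passenger was 0.0366%, 0.0383% and 0.0339% of the miR165 guide with epiBL, against 0.0390%, 0.0515% and 0.0388% in controls. Every epiBL value was below every control value, by a narrow margin, with control replicate 2 standing highest, and the groups did not overlap in 26.7% of the 45 pairs. The log2 difference was -0.23 (SE 0.17, limma adjusted p = 0.418) and -0.099 without control replicate 2.

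For miR166e-5p the ratios lay the other way, at 0.00404%, 0.00453% and 0.00563% of the miR166 guide with epiBL, against 0.00327%, 0.00323% and 0.00383% in controls. The groups did not overlap, as in 26.7% of the 45 pairs, and the log2 difference was 0.45 (SE 0.18, limma adjusted p = 0.191). No member ratio passed, and among all 45 pairs 1 did (2.22%). The guide pools 7 loci in the miR166 ratios and 2 in that of MIR165a, so none is a ratio at one hairpin. In median ratio of 5p to 3p reads, the member pairs ranked 1 (MIR166e), 2 (MIR165a) and 4 (MIR166a and b) from the lowest of 45. This order does not rank passengers against guides, since in some families the 5p sequence outnumbered the 3p. The highest median log2 ratio was 10.2, for miR156a-f-5p to miR156f-3p.

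**Figure D4:**
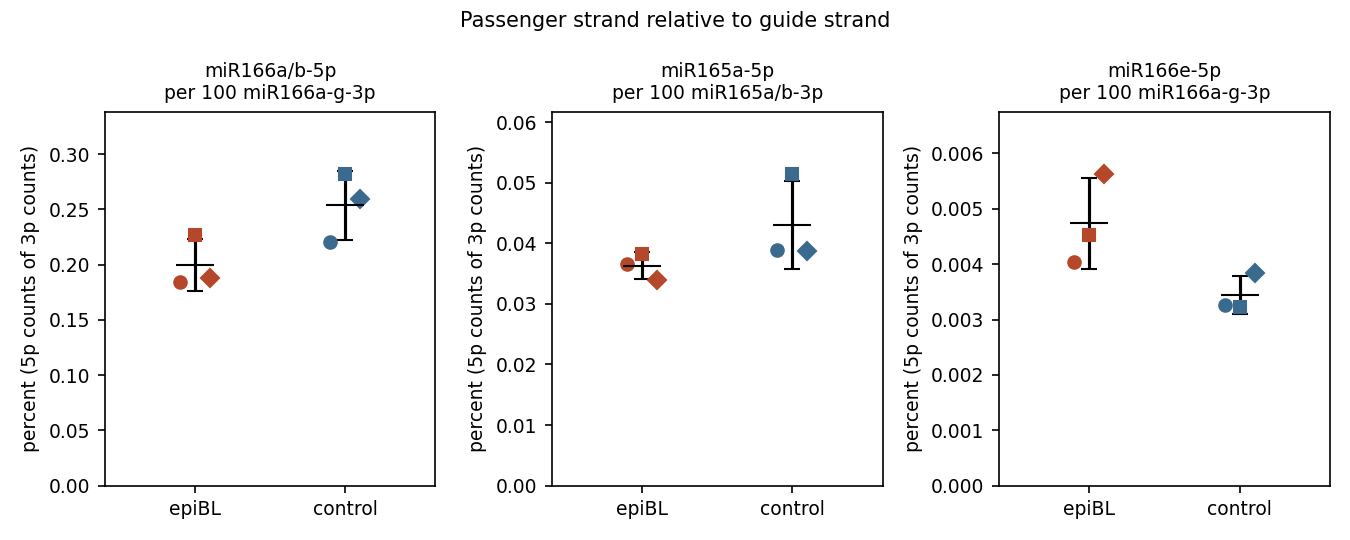
Passenger (5p) reads as a percent of guide (3p) reads (y axis, linear from 0) in epiBL and control libraries (x axis) for the 3 passenger sequences. Circles, squares and diamonds are replicates 1, 2 and 3, and bars give the mean and SD (n = 3). epiBL values average lower than control values in the left and middle panels and higher in the right panel.

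Among passenger reads alone, miR166a/b-5p, whose reads MIR166a and MIR166b share, made up 92.8% ± 0.562 with epiBL and 94.1% ± 0.451 in controls (SD, n = 3 each). miR166e-5p made up 2.03%, 1.86% and 2.77% in epiBL replicates 1, 2 and 3, against 1.39%, 1.07% and 1.40% in control replicates 1, 2 and 3. In both sequences the groups did not overlap, each with an exact permutation p of 0.1, which was 0.15 adjusted over the 3 passengers and cannot reach 0.05 with 3 libraries a group. For comparison, shares of the library total did not overlap in 27.7% of all tested miRNAs. miR165a-5p made up 4.98% ± 0.171 with epiBL and 4.63% ± 0.566 in controls (SD, n = 3 each, exact permutation p = 0.5), a difference of 0.343 percentage points that was 0.0273 without control replicate 3. The 3 shares sum to 100%, so a rise in one lowers the others.

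Other families act on leaf polarity, organ boundaries, growth or meristems beside HD-ZIP III. They are miR390 (trigger of the small RNAs that keep ARF3 and ARF4 off the upper leaf side), miR160 (auxin response factors), miR164 (CUC boundary genes), miR319 (TCP genes), miR394 (LCR), miR396 (growth-regulating factors) and miR170 and miR171 (GRAS-domain regulators). Of their 23 listed sequences 20 were tested, of which 1 rose, 0 fell and 19 did not pass. Over all 148 miRNAs tested, 2.7% rose and 5.41% fell. The median log2 fold change was 0.17 in the list and 0.0046 over all tested. The one of the list that rose was miR170/miR171a-5p, the 5p sequence of both MIR170 and MIR171a. Which strand of these hairpins acts on GRAS-domain mRNAs was not examined here. The 3p sequences miR170-3p, miR171a-3p and miR171b/c-3p did not pass. Their log2 fold changes were 0.30, 0.16 and 0.44 (edgeR adjusted p = 0.476, 0.335 and 0.141). miR170/miR171a-5p stood at 98.2 ± 2.96 CPM with epiBL and 75.5 ± 0.522 CPM in controls (SD, n = 3 each, log2 fold change 0.38, SE 0.11, edgeR adjusted p = 0.0403). It did not pass with total counts only (0.25, adjusted p = 0.310) or without any one of 5 of the 6 libraries, passing only when epiBL replicate 2 was left out, while the log2 fold change with 1 library left out stayed between 0.38 and 0.41. The most abundant of the list, miR396b-5p, was at 10103 ± 1697 CPM with epiBL and 11569 ± 1011 CPM in controls (SD, n = 3 each, log2 fold change -0.20, SE 0.12) and did not pass.

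The profile of each guide over the 6 libraries was set beside those of the tested miRNAs as the root mean square (RMS) difference of log2 CPM after centring each on its mean. The guides were 0.046 apart from each other. Outside both families the nearest to miR166a-g-3p were miR869-3p (RMS 0.051), miR171b-5p (0.072) and miR158b-3p (0.076), against a median of 0.28. Nearest to miR165a/b-3p were miR171b-5p (RMS 0.058), miR869-3p (0.078) and miR163-3p (0.094). These profiles share libraries and scaling factors, and the RMS is a description with no test.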

How the data were processed

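Per the labels' protocols, total RNA with its small fraction (mirVana kit) was made into TruSeq small RNA libraries and sequenced on an Illumina GAII-type instrument. The authors deposited 1 table of raw counts, per the file headers of reads identical to a mature miRNA and grouped by sequence. The submitters' processing notes name TAIR10. Read trimming, mapping software and the miRNA database release were not given in the sources used here. The same deposited table holds the authors' unadjusted p-value, signed fold change (a score below -1 or at least 1) and its log2. Its header describes 0 min against 90 min. The sample labels, followed here, put both groups at 90 min.

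R 4.3.3 with limma 3.58.1, DESeq2 1.42.0 and edgeR 4.0.16, and Python 3.11.15 with pandas 2.3.3, numpy 2.4.6, scipy 1.17.1 and matplotlib 3.10.9 were used. All rows kept by filterByExpr (minimum count 10, total 15; 148 rows) were scaled by TMM and tested with edgeR's robust quasi-likelihood F test without a replicate block, Benjamini-Hochberg adjusted over all of them at 0.05. SE is the log2 fold change over the square root of F. Arm ratios, log2 of counts plus 0.5, were tested with limma over 45 pairs sharing a locus. Shares and ratios per library had two-sided exact permutation tests. The fits were tested on simulated data. Libraries of a group differed beyond sampling noise in every pair. Depth was 2050074 to 4482479 counts, and floors cover counting error only, since no molecular identifiers are stated.

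All member rows are named. From the leaf and meristem list the called rows, the most abundant and that with the smallest p are named, and for each guide the 3 nearest profiles. The members, lists and rules were chosen with earlier results of these data known. Alternatives were a replicate block, DESeq2, limma-trend, other scalings, filters, pseudocounts and thresholds, sums per family and leaving out each library.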

Additional observations from a re-analysis of the deposited data

How the results depend on the processing

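Members called were 0 in the reported test and under DESeq2, limma-trend, RLE, upper-quartile and total-count scaling, scaling on other miRNAs only, no filter, a stricter filter and sums per family. They were 1 with a replicate block (miR166e-5p, 0.66, adjusted p = 0.0194), 1 at an adjusted p under 0.1 and, leaving out single libraries, 0 to 3. The 3 were miR166a-g-3p, miR165a/b-3p and miR166e-5p without epiBL replicate 2. Over all tested miRNAs the 12 calls became 22 with the block, 20 in DESeq2, 26 at an adjusted p under 0.1 and 5 to 25 with 1 library left out. The 25 came without epiBL replicate 2, the 5 without epiBL replicate 3 or control replicate 2, and leaving out control replicate 3 gave 7. In the leaf and meristem list the 1 call became 2 with the block, 0 with limma-trend, total counts, upper-quartile factors or no filter, and 0 to 2 with 1 library left out. The 1 arm pair called over all families became 2 with the block, 2 with at least 10 counts in every library and 0 to 2 with 1 library left out (0 without epiBL replicate 2, 2 without control replicate 1 or 2). Thresholds and sums change what is counted, and otherwise the cause was not tested. Same-numbered replicates were not treated as pairs, since their deviations from the group means correlated at -0.15, 0.11 and -0.14. A library's best match had its own number in 2 of 6 cases.

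The log2 fold change of miR165a-5p turned positive with limma-trend (0.0055), RLE factors (0.014), scaling on other miRNAs only (0.025) and the stricter filter (0.0032), and ran from -0.067 to 0.091 with 1 library left out. With 1 library left out, miR166a-g-3p ran from 0.15 to 0.35, miR165a/b-3p from 0.15 to 0.35, miR166a/b-5p from -0.17 to -0.076 and miR166e-5p from 0.46 to 0.79, and the guide log2 ratio from -0.0027 to 0.061. Over the other 9 settings these 4 sequences kept their direction. Family shares, passenger shares and member arm ratios kept direction in every alternative run and none passed. A permutation test of 3 against 3 could not pass, which concerns the shares only. Arm ratios were tested with limma, where 1 of the 45 pairs of all families passed in the reported test. With 1 library left out, the difference in share ran from 1.67 to 3.97 percentage points for miR166a-g-3p (3.97 without epiBL replicate 2), 0.524 to 1.14 for miR165a/b-3p and 2.18 to 5.09 for all 5 members (lowest without epiBL replicate 3, highest without epiBL replicate 2). Among passenger reads it ran from 0.0273 to 0.573 for miR165a-5p (without control replicates 3 and 2), -1.55 to -0.986 for miR166a/b-5p and 0.66 to 1.11 for miR166e-5p. The log2 arm ratio differed by -0.30 to -0.099 for MIR165a, -0.44 to -0.26 for miR166a/b-5p and 0.32 to 0.56 for miR166e-5p. Depth limits miR166e-5p, with 51 to 77 reads a library.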
